A study of Mus musculus with 5 samples.

Results

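Retnla, Chil3, Cd209a, Cd209d, Mgl2, Clec10a and Il4ra are 7 of the 31053 genes listed for these libraries of mouse skin cells. They are genes of alternative macrophage activation, looked up by symbol and followed in macrophages, monocytes and dendritic cells. They were chosen by their measured levels in macrophages of imiquimod-treated and untreated dermis, so those values describe the genes and support nothing beyond that. Single-cell RNA was counted as unique molecular identifiers (UMIs) in 5 libraries of skin depleted of dead cells, 1 for each condition, of which 3 are used here. The imiquimod dermis came from C57BL/6 wild-type mice of 10 weeks whose ears received imiquimod for 5 consecutive days. The lesional skin was whole skin with psoriasis-like lesions from K5. Pp6fl/fl mice of 18 weeks on the C57BL/6 background, which were not given imiquimod and in which the study removes protein phosphatase Pp6 from keratinocytes. The untreated dermis came from C57BL/6 wild-type mice of 10 weeks. The body site of the untreated dermis and of the lesional skin, and the number of animals per library, are not given in the sources used here. Treatment and body site therefore cannot be told apart either. Lesional skin differed from untreated dermis in genotype, age, tissue layer and the sex of part of its cells at once, and these cannot be told apart. With 1 library per condition no difference was tested: intervals cover counting error only, differences are named by size, and libraries are compared within cell classes.

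Alternative activation is the state that interleukin-4 and interleukin-13 give to macrophages. Both cytokines signal through a receptor that contains the chain encoded by Il4ra, and the transcription factor STAT6 then turns on target genes. Retnla encodes the secreted protein RELM-alpha, also called FIZZ1, and Chil3 encodes the secreted chitinase-like protein Ym1. Both are textbook markers of this state in the mouse, and Chil3 is also made by monocytes and neutrophils. Cd209a and Cd209d encode C-type lectins of the DC-SIGN family, and Mgl2 and Clec10a encode the 2 mouse macrophage galactose-type lectins, which bind galactose and N-acetylgalactosamine. In skin these lectins mark resident dermal macrophages and a subset of dermal dendritic cells.

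The genes lie on 5 chromosomes (mm10; positions from GENCODE vM21). Retnla is at chr16:48842551-48844461 on the plus strand and Chil3 at chr3:106147554-106167564 on the minus strand. Cd209a (chr8:3743397-3748984) and Cd209d (chr8:3871824-3878555) are both on the minus strand, with 122839 bases between them. Mgl2 (chr11:70130329-70137550) and Clec10a (chr11:70156197-70170834) are on the plus strand, 18646 bases apart, and Il4ra is at chr7:125552120-125579474 on the plus strand. The promoters of Retnla and Chil3 are shown because these genes had the largest differences between the dermis libraries, in opposite directions, and that of Mgl2 stands beside them for the lectins. Each is the RefSeq window (GRCm38.p6) from 250 bases before to 50 after the start, 5′ to 3′ on the gene's own strand. Capitals mark TTCNNNNGAA in Retnla and TTCNNNGAA in Chil3, the palindromic spacings used by STAT6 and by other STAT proteins.
Retnla, chr16:48842359-48842658, plus strand: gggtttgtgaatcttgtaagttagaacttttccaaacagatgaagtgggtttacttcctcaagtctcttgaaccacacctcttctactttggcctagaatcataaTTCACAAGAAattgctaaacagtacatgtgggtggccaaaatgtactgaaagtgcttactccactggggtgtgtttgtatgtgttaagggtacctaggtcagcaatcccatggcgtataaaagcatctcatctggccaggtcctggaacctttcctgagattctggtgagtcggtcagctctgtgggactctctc
Chil3, chr3:106167515-106167814, minus strand: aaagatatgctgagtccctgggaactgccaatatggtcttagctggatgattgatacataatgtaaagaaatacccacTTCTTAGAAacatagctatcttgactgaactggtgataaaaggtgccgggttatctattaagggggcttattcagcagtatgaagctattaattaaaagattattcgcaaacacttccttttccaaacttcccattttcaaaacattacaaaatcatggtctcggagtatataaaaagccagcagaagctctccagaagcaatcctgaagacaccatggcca
Mgl2, chr11:70130107-70130406, plus strand: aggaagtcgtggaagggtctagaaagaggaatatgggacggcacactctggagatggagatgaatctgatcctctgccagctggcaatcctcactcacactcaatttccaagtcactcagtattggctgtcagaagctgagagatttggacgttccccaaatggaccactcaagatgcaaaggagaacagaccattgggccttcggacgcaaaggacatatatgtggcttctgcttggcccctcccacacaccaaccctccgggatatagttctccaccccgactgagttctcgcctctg
Of the 6 genes with a RefSeq promoter entry (Clec10a had none), the 4-base spacer occurred in Retnla alone, at position -145, and in 6.95% of the 32851 promoters of that table. The 3-base spacer occurred among the 6 in Chil3 alone, at position -172, and in 8.30% of all promoters. Both motifs read the same on either strand. A match says only that the letters are there.

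After filtering, 4792 cells of imiquimod dermis, 2596 of lesional skin and 519 of untreated dermis remained, with medians of 6468, 8276.5 and 4695 UMIs per cell. Clusters were named from marker genes, so that "macrophages" below means macrophage-like cells, and likewise for the other classes. Macrophages numbered 679 in imiquimod dermis, 167 in lesional skin and 231 in untreated dermis, and all 14 macrophage markers were detected in each. Dendritic cells numbered 119 in imiquimod dermis, 26 in lesional skin and 43 in untreated dermis. Monocytes numbered 1091 in imiquimod dermis, 68 in lesional skin and 6 in untreated dermis, too few there for a comparison. The 17 dendritic cell markers were detected in dendritic cells of imiquimod dermis (17), lesional skin (17) and untreated dermis (15), and the 11 monocyte markers in monocytes of imiquimod dermis and lesional skin (11 each). Further phagocyte clusters carried markers of more than 1 class (996 cells in imiquimod dermis, 106 in lesional skin, 23 in untreated dermis) or had no name (257, 3 and 16 cells). Macrophages of the 3 libraries sat mostly in different clusters: 419 of those in imiquimod dermis were in one cluster, 157 of those in lesional skin in another and 217 of those in untreated dermis in another again. Levels are given as CPM, a gene's UMIs summed over the cells of a class and scaled to 1000000 UMIs of those cells. Summed neutrophil markers in macrophages were 2522 CPM in imiquimod dermis, 173 CPM in lesional skin and 108 CPM in untreated dermis, and summed monocyte markers 701 CPM in imiquimod dermis, 1254 CPM in lesional skin and 337 CPM in untreated dermis. The summed markers of macrophages themselves were 16310 CPM in imiquimod dermis, 28300 CPM in lesional skin and 32408 CPM in untreated dermis. The part of these differences in the results was not tested. No cell barcode of lesional skin occurred in another library, and 4 were shared between imiquimod and untreated dermis. Lesional skin pooled cells of both sexes: among its macrophages 36 held Xist without Y-linked genes, 77 held Y-linked genes without Xist, 1 held both and 53 neither, whereas no macrophage of the dermis libraries held Xist.

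Macrophages of imiquimod dermis nearly lacked Retnla. The gene had 2 UMIs over 679 macrophages of imiquimod dermis, or 0.264 CPM (exact Poisson 95% interval 0.0320 to 0.954). It had 491 UMIs in 167 macrophages of lesional skin (290.4 CPM, 265 to 317) and 253 UMIs in 231 macrophages of untreated dermis (208 CPM, 183 to 235). The level was therefore 786-fold lower in imiquimod than in untreated dermis (counting interval 215 to 6528), and 1.40-fold higher in lesional skin than in untreated dermis (1.20 to 1.63), a direction that turned in lesional cells with Y-linked genes alone (log2 ratio -0.90, against 0.48 in all). Without any naming of cells, all 4792 cells of imiquimod dermis together held 12 Retnla UMIs, against 528 in all cells of lesional skin and 272 in all 519 cells of untreated dermis. Macrophages held 93.0% of the Retnla UMIs in each of lesional skin and untreated dermis.

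A few cells carried that Retnla. It was found in 2 of 679 macrophages of imiquimod dermis (0.295%), 13 of 167 of lesional skin (7.78%) and 18 of 231 of untreated dermis (7.79%). The 5 highest macrophages held 92.3% of the gene's UMIs in lesional skin and 92.5% in untreated dermis, and the single highest cell held 235 UMIs in lesional skin and 81 in untreated dermis. Cells with Retnla averaged 1 UMI of it in imiquimod dermis, 37.8 in lesional skin and 14.1 in untreated dermis. T cells and innate lymphoid cells, which should lack the gene, held it in 0% of cells in imiquimod dermis, 0% in lesional skin and 4.35% in untreated dermis, there as 6 UMIs in 6 cells. The share of positive macrophages in untreated dermis was thus near that background, whereas the level, at 208 CPM, was far above the 12.5 CPM of those lymphoid cells. Median depths of the lymphoid cells were 5292.5 UMIs in imiquimod dermis, 4370 in lesional skin and 3147.5 in untreated dermis, against 9164, 10039 and 4579 in macrophages. Mgl2 was also detected in 8 of the 13 Retnla-positive macrophages of lesional skin and in 13 of the 18 of untreated dermis, where independent detection would give 4.98 and 9.97.

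Chil3, the other secreted marker, ran the opposite way in the dermis. It had 1591 UMIs in macrophages of imiquimod dermis (210.0 CPM), 20 in lesional skin (11.8 CPM, 7.22 to 18.3) and 3 in untreated dermis (2.46 CPM, 0.507 to 7.19). The level was 85.3-fold higher in imiquimod than in untreated dermis (29.1 to 414) and 4.81-fold higher in lesional skin than in untreated dermis (1.43 to 25.3), both against 3 UMIs. The lesional difference was under 2-fold (log2 ratio 0.37) in cells with Y-linked genes and 20 or more C1q UMIs per 10000. Among macrophages 54.3% held a Chil3 UMI in imiquimod dermis, 4.19% in lesional skin and 0.866% in untreated dermis. Chil3 was also spread widely in imiquimod dermis: 22.2% of its T cells and innate lymphoid cells held a UMI. With every cell thinned to 2000 UMIs the share was 23.1% of macrophages and 9.51% of T cells and innate lymphoid cells of that library. Macrophages thus exceeded those lymphoid cells, but other cells outside the phagocytes also held Chil3. Schwann cells of that library held 94 Chil3 UMIs among 308465 UMIs and fibroblasts 210 among 3389382, against 1591 among 7577016 in macrophages. Per UMI, Schwann cells therefore held more than macrophages. What part of the macrophage Chil3 is free RNA was not tested.

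Monocytes held far more Chil3 than macrophages. The gene had 17805 UMIs in monocytes of imiquimod dermis (2218 CPM) and 1809 in monocytes of lesional skin (3325 CPM), with a UMI in 77.2% of monocytes of imiquimod dermis and 72.1% of those of lesional skin. Even in untreated dermis 24 of the library's 29 Chil3 UMIs lay in its 6 monocytes. The other 6 genes were low or moderate in monocytes: Il4ra had 56.7 CPM in imiquimod dermis and 110.3 CPM in lesional skin, Clec10a had 21.2 CPM in imiquimod dermis and 12.9 CPM in lesional skin, and Retnla, Cd209a, Cd209d and Mgl2 at most 5.85 CPM in either library. Monocytes of imiquimod dermis and lesional skin were thus high in Chil3 and poor in lectins, but not alone in this. Neutrophils of imiquimod dermis held 2627 Chil3 UMIs (746 CPM) and at most 30 UMIs of any 1 lectin. A lesional phagocyte cluster without a class name held 931 CPM of Chil3, with each lectin at 26.0 CPM or below.

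**Figure D1:**
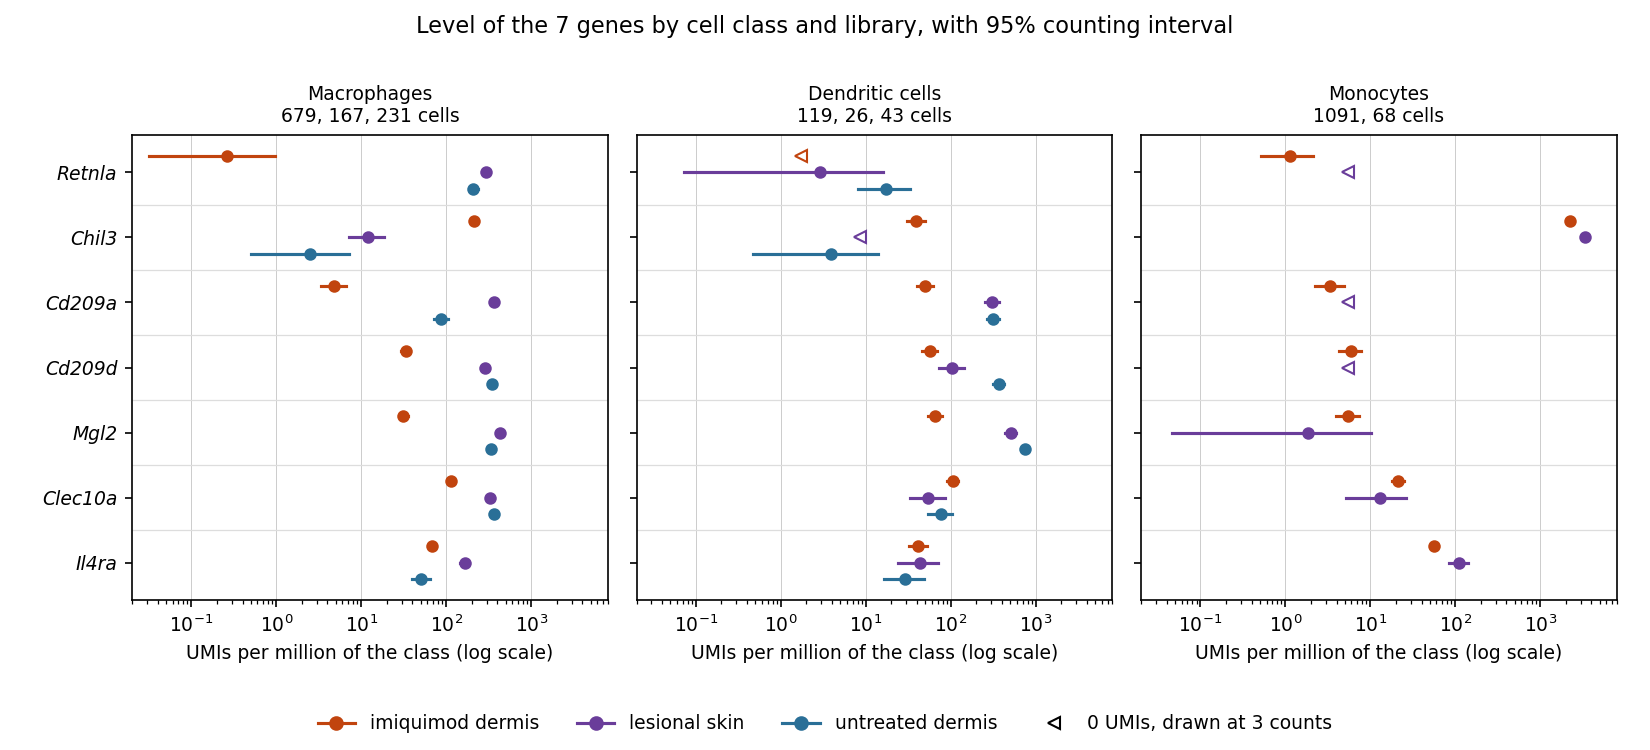
Level of each of the 7 genes (CPM, log axis) in macrophages, monocytes and dendritic cells of imiquimod dermis, lesional skin and untreated dermis. Exact Poisson 95% intervals are shown. An open triangle pointing left stands for 0 UMIs. It is drawn at a stand-in level and not at a measured one, at 1.70 CPM for Retnla in dendritic cells of imiquimod dermis. Retnla is at 0.264 CPM in macrophages of imiquimod dermis and at 290.4 and 208 CPM in those of lesional skin and untreated dermis, while Chil3 is highest in monocytes.

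The 4 lectins were each lower in macrophages of imiquimod dermis. Cd209a had 36 UMIs in imiquimod dermis (4.75 CPM, 3.33 to 6.58), 623 in lesional skin (368 CPM, 340 to 399) and 106 in untreated dermis (87.0 CPM, 71.2 to 105). Cd209d had 253 UMIs in imiquimod dermis (33.4 CPM), 477 in lesional skin (282 CPM) and 420 in untreated dermis (345 CPM). These DC-SIGN family genes were 18.3-fold and 10.3-fold lower in imiquimod than in untreated dermis, with counting intervals of 12.4 to 27.5 and 8.81 to 12.1. Mgl2 had 237 UMIs in imiquimod dermis (31.3 CPM), 735 in lesional skin (435 CPM) and 414 in untreated dermis (339.6 CPM). Clec10a had 863 UMIs in imiquimod dermis (114 CPM), 560 in lesional skin (331 CPM) and 439 in untreated dermis (360.1 CPM). Of the galactose-type lectins Mgl2 was 10.9-fold lower (9.23 to 12.8) and Clec10a 3.16-fold lower (2.81 to 3.55) in imiquimod than in untreated dermis, so the difference was smallest for Clec10a.

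In lesional skin the lectins parted from one another. Cd209a was 4.24-fold higher than in untreated dermis (3.44 to 5.26) and Mgl2 1.28-fold higher (1.13 to 1.45; log2 ratio 0.36, but -0.24 with stricter cell filters and -0.26 at clustering resolution 2.0), whereas Cd209d was 1.22-fold lower (1.07 to 1.40; log2 ratio -0.29, but 0.18 in cells with Y-linked genes and 20 or more C1q UMIs per 10000) and Clec10a differed by a factor of 0.920 (0.810 to 1.04). Depth per cell was larger in lesional skin, with a macrophage median of 10039 UMIs against 4579 in untreated dermis. The cells that held a lectin also held more of it: Cd209a-positive macrophages averaged 13.8 UMIs of the gene in lesional skin and 2.21 in untreated dermis. Mgl2-positive macrophages averaged 11.5 UMIs in lesional skin and 3.23 in untreated dermis, and Cd209d-positive ones 14.0 UMIs in lesional skin and 4.47 in untreated dermis. In lesional skin 5 macrophages held 51.4% of the Cd209d UMIs, the highest of them 77.

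Shares of cells at 2000 UMIs per cell followed the direction of the levels for all 7 genes in imiquimod against untreated dermis, with Retnla in 0 of 633 macrophages of imiquimod dermis (3 counts of 633 being 0.474%, a limit on cells with a UMI at this depth and not on cells that express the gene) and in 5.62% of those of untreated dermis. Thinning left 633 macrophages of imiquimod dermis, 150 of lesional skin and 178 of untreated dermis. Cd209a was then detected in 1.42% of macrophages of imiquimod dermis, 24.7% of lesional skin and 10.7% of untreated dermis, and Cd209d in 3.95% of imiquimod dermis, 18.0% of lesional skin and 26.4% of untreated dermis. Mgl2 was detected in 5.53% of imiquimod dermis, 28.7% of lesional skin and 36.5% of untreated dermis, and Clec10a in 14.9% of imiquimod dermis, 31.3% of lesional skin and 42.7% of untreated dermis. Mgl2 in lesional skin had the higher CPM and the lower share of the pair with untreated dermis, so no order is read from it. Before thinning the 4 lectins were each found in 3.53% (Cd209a) to 41.4% (Clec10a) of macrophages of imiquimod dermis, 20.4% (Cd209d) to 46.1% (Clec10a) of lesional skin and 20.8% (Cd209a) to 61.0% (Clec10a) of untreated dermis. T cells and innate lymphoid cells held a UMI of any 1 of these lectins in at most 4.35% of cells of a library before thinning.

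Il4ra, the receptor chain, did not share the direction of Retnla and the lectins. It had 510 UMIs in macrophages of imiquimod dermis (67.3 CPM, 61.6 to 73.4), 280 in lesional skin (166 CPM, 147 to 186) and 62 in untreated dermis (50.9 CPM, 39.0 to 65.2). It was 1.32-fold higher in imiquimod than in untreated dermis (1.02 to 1.75), short of the 2-fold set for naming a difference, and 3.26-fold higher in lesional skin than in untreated dermis (2.46 to 4.36), though not in lesional cells with Xist alone (log2 ratio -0.21, against 1.70 in all). At 2000 UMIs per cell it was detected in 11.8% of macrophages of imiquimod dermis, 26.0% of lesional skin and 6.18% of untreated dermis. The receptor is not particular to these cells: T cells and innate lymphoid cells held 43.9 CPM of it in imiquimod dermis, 107 CPM in lesional skin and 83.1 CPM in untreated dermis. An antisense gene, Gm44876, overlaps Il4ra.

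Counted together, 5 of the 7 genes were more than 2-fold lower and 1 more than 2-fold higher in macrophages of imiquimod than of untreated dermis. The background is large: of the 7256 genes with enough counts, 21.4% were more than 2-fold lower and 8.41% more than 2-fold higher (29.8% either way), and since this contrast chose the genes nothing is read from the count. The median log2 ratio was -3.37 over the 7 genes and -0.27 over all, against which the single ratios are read. In macrophages of lesional skin against untreated dermis, 3 of the 7 (Chil3, Cd209a and Il4ra, each with an alternative in which it is not) were more than 2-fold higher and 0 lower, beside 15.6% higher and 7.14% lower of 7855 genes (22.7% either way). There the median log2 ratio was 0.48 over the 7 genes and 0.21 over all.

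**Figure D2:**
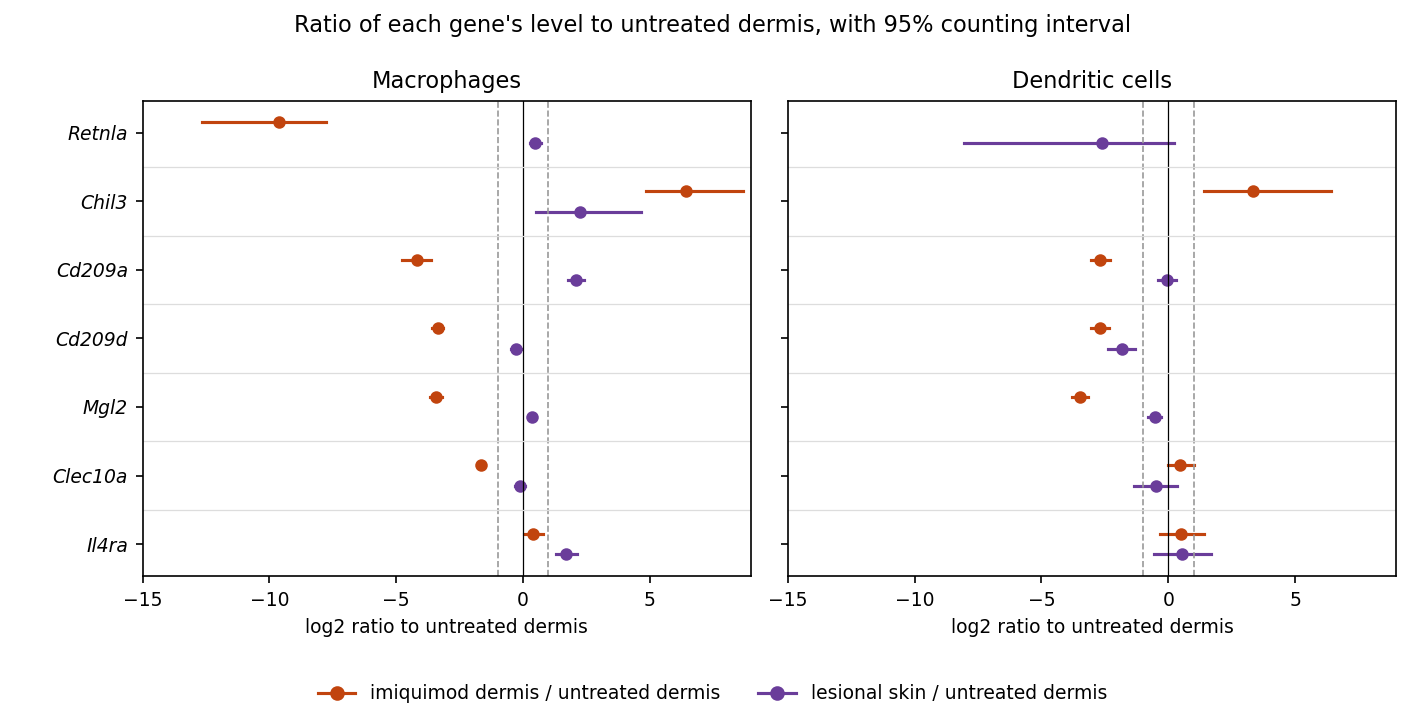
Log2 ratio of each gene's summed level over untreated dermis, for imiquimod dermis and lesional skin, in macrophages and in dendritic cells, with 95% counting intervals; dashed lines mark 2-fold. In macrophages Retnla lies at -9.62 and Chil3 at 6.41 for imiquimod dermis, while in lesional skin Chil3, Cd209a and Il4ra lie above 2-fold.

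Dendritic cells shared the lower lectin levels of imiquimod dermis for 3 of the 4, within the cells so named. The class left out a lectin-rich cluster of 225 cells of imiquimod dermis with markers of monocytes and of dendritic cells. That cluster held 424 Cd209a UMIs, against 87 in the named dendritic cells. Phagocyte clusters outside the named classes held 71.5% of the Cd209a UMIs of imiquimod dermis and 24.1% of those of untreated dermis. Cd209a had 49.4 CPM in dendritic cells of imiquimod dermis (87 UMIs), 306 in lesional skin (107 UMIs) and 315 in untreated dermis (162 UMIs). Cd209d had 56.8 CPM in imiquimod dermis, 103 in lesional skin and 367 in untreated dermis. Mgl2 had 65.9 CPM in imiquimod dermis, 509 in lesional skin and 738 in untreated dermis, so each of these 3 was lowest in imiquimod dermis. In imiquimod against untreated dermis, Cd209a was 6.37-fold lower (4.88 to 8.36), Cd209d 6.46-fold lower (5.04 to 8.32) and Mgl2 11.2-fold lower (9.07 to 13.9). Clec10a did not share this order, at 106 CPM in imiquimod dermis, 54.3 in lesional skin and 75.8 in untreated dermis. Mgl2 in untreated dermis was thus higher in CPM in dendritic cells than in macrophages, and Clec10a lower. Other markers moved within the class: summed macrophage markers were 1494.5 CPM in imiquimod dermis, 477 CPM in lesional skin and 2745 CPM in untreated dermis, and summed neutrophil markers 2268 CPM in imiquimod dermis, 320.2 CPM in lesional skin and 429 CPM in untreated dermis. Of 2 dendritic cell clusters the larger was led by Ccl22, Fscn1 and Ccr7. The smaller held 34.5% of the class in imiquimod dermis, 15.4% in lesional skin and 9.30% in untreated dermis. Within the larger cluster alone Cd209a had 65.2 CPM in imiquimod dermis and 324 CPM in untreated dermis, Cd209d 82.8 CPM in imiquimod dermis and 389 CPM in untreated dermis, and Mgl2 79.3 CPM in imiquimod dermis and 789.7 CPM in untreated dermis. Il4ra had 41.5 CPM in dendritic cells of imiquimod dermis, 42.9 in lesional skin and 29.1 in untreated dermis, and the counting interval of its ratio over untreated dermis spans 1 for imiquimod dermis (0.809 to 2.67) and for lesional skin (0.670 to 3.23).

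In lesional skin the dendritic cells were few and their lectins lay in few of them. Cd209d was 3.57-fold lower than in untreated dermis (2.49 to 5.25) and Mgl2 1.45-fold lower (1.21 to 1.74), while Cd209a differed by a factor of 0.972. Of the 26 lesional cells, 5 held all 107 Cd209a UMIs and 6 held all 178 Mgl2 UMIs, with 81 Cd209a UMIs and 78 Mgl2 UMIs in the highest cell. Retnla had 0 UMIs in dendritic cells of imiquimod dermis, 1 in lesional skin and 9 in untreated dermis. Chil3 had 39.2 CPM in dendritic cells of imiquimod dermis, 0 in lesional skin and 3.89 in untreated dermis. The value of imiquimod dermis is below the 43.2 CPM of T cells and innate lymphoid cells of its library, so nothing is read from it. What part of it is free RNA was not tested. Of the 6 genes with enough counts, 3 were more than 2-fold lower and 1 (Chil3) higher in imiquimod than in untreated dermis, beside 22.9% lower of 6960 genes and 35.9% past 2-fold either way. In lesional skin against untreated dermis 2 of 6 (Cd209d, and Retnla with 1 UMI against 9, whose counting interval spans equal levels) were lower and 0 higher, beside 15.9% lower and 16.7% higher of 6343 genes (32.6% either way).

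The clusters of imiquimod dermis showed where its remaining lectin RNA lay. Macrophages there comprised a cluster of 419 cells with 368 CPM of Chil3, a cluster of 135 cells led by cell-cycle genes with 72.5 CPM, and a cluster of 123 cells led by Marco, Cd209f and Cxcl13 with 46.7 CPM. The last of these held the most Cd209d (99.4 CPM), Clec10a (197 CPM) and Il4ra (116 CPM) of the macrophage clusters, and the least Chil3. A cluster of 225 cells, with Cd7, Klrd1 and Siglech among its leading genes and markers of more than 1 class, held 184 CPM of Cd209a, 183 of Cd209d, 171 of Mgl2 and 305 of Clec10a. A cluster of 257 cells, with Ccl17, Ear2 and Alox15 among its leading genes, held 132 CPM of Mgl2 and 74.5 CPM of Cd209d. Phagocyte clusters outside the named classes thus held 71.5% of the Cd209a UMIs of imiquimod dermis, 54.9% of Cd209d, 62.2% of Mgl2 and 38.4% of Clec10a.

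Lesional skin had a phagocyte cluster of another kind. Its 78 cells, led by Gpnmb, Mmp12 and Spp1 and left without a class name, held 931 CPM of Chil3 and 112 CPM of Il4ra, with each lectin at 26.0 CPM or below. The main lesional macrophage cluster held 306 CPM of Retnla, 383 of Cd209a, 298 of Cd209d, 449 of Mgl2 and 347 of Clec10a, with 12.6 CPM of Chil3. Chil3 and the lectins therefore lay mostly in different clusters in lesional skin. In imiquimod dermis the largest macrophage cluster held 368 CPM of Chil3 and 119 CPM of Clec10a. The other lectins were low in it, with 3.89 CPM of Cd209a, 17.5 of Cd209d and 21.1 of Mgl2. Chil3 of that library was highest in a monocyte cluster of 227 cells, at 3318 CPM, with each lectin there at 16.7 CPM or below.

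**Figure D3:**
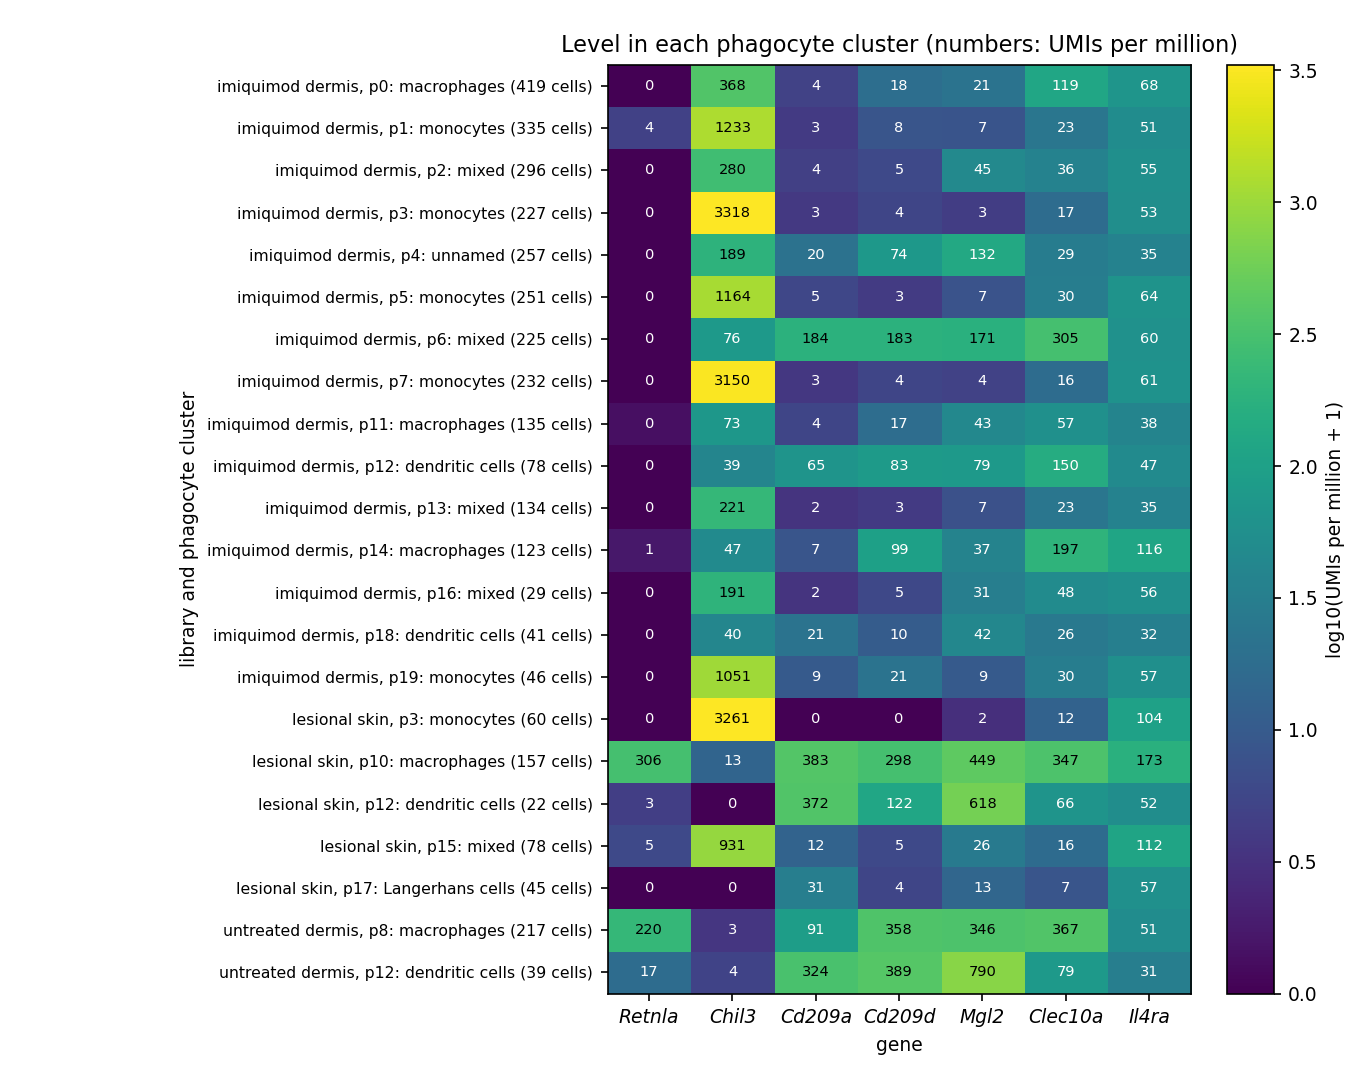
Level of each gene (log10 of CPM + 1, shown by colour) in phagocyte clusters of at least 20 cells in imiquimod dermis, lesional skin and untreated dermis, with the CPM written in each field. Chil3 is highest in the monocyte clusters, and in imiquimod dermis the lectins are highest in a cluster of 225 cells with markers of more than 1 class, at 184 CPM for Cd209a.

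The macrophages of lesional skin were themselves of 2 kinds by complement C1q, whose genes C1qa, C1qb and C1qc mark mature tissue macrophages. A cutoff of 20 C1q UMIs per 10000, chosen after the values were seen, left 107 of the 167 lesional macrophages at or above it, 514 of 679 in imiquimod dermis and 214 of 231 in untreated dermis. The share below it was 24.3% in imiquimod dermis, 35.9% in lesional skin and 7.36% in untreated dermis, and 60 cells of imiquimod dermis, 9 of lesional skin and 10 of untreated dermis lay between 13.3 and 26.7 per 10000, near the cutoff. Lesional cells below the cutoff held 728 CPM of Cd209a and 767 of Mgl2, against 123 and 208 CPM at or above it. They also held 72.9 CPM of Flt3, a receptor of dendritic cells and their precursors, against 2.98 CPM at or above the cutoff, and 645 CPM of Ccr2 against 323 CPM, with 0 UMIs of Lyve1 against 446 CPM. Cd163 had 114 CPM below the cutoff, with a UMI in 18 of 60 cells, and 515 CPM at or above, with a UMI in 31 of 107. The macrophage elastase Mmp12 had 129.8 CPM below the cutoff and 5.97 CPM at or above it. Dendritic cell markers summed over all macrophages came to 103 CPM in imiquimod dermis, 305 CPM in lesional skin and 103 CPM in untreated dermis.

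At or above the cutoff Cd209a of lesional skin was closer to that of untreated dermis, and Mgl2 lay on the other side of it. Cd209a had 123 CPM in lesional skin and 72.1 CPM in untreated dermis, a log2 ratio of 0.77 that is no longer past 2-fold, and Mgl2 had 208 CPM in lesional skin and 321 CPM in untreated dermis, a log2 ratio of -0.63 against 0.36 over all macrophages. Il4ra kept its difference, with 213 CPM in lesional skin (185 to 243) and 55.0 CPM in untreated dermis (42.0 to 70.6). Retnla had 407 CPM in lesional skin and 218 CPM in untreated dermis, the lesional value from 10 cells. In imiquimod against untreated dermis, macrophages at or above the cutoff had log2 ratios of -9.29 for Retnla, 7.71 for Chil3, -4.11 for Cd209a, -3.18 for Cd209d, -3.42 for Mgl2 and -1.52 for Clec10a. The median over all genes with enough counts was -0.31 in these cells. This contrast chose the genes, so these ratios are description only.

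**Figure D4:**
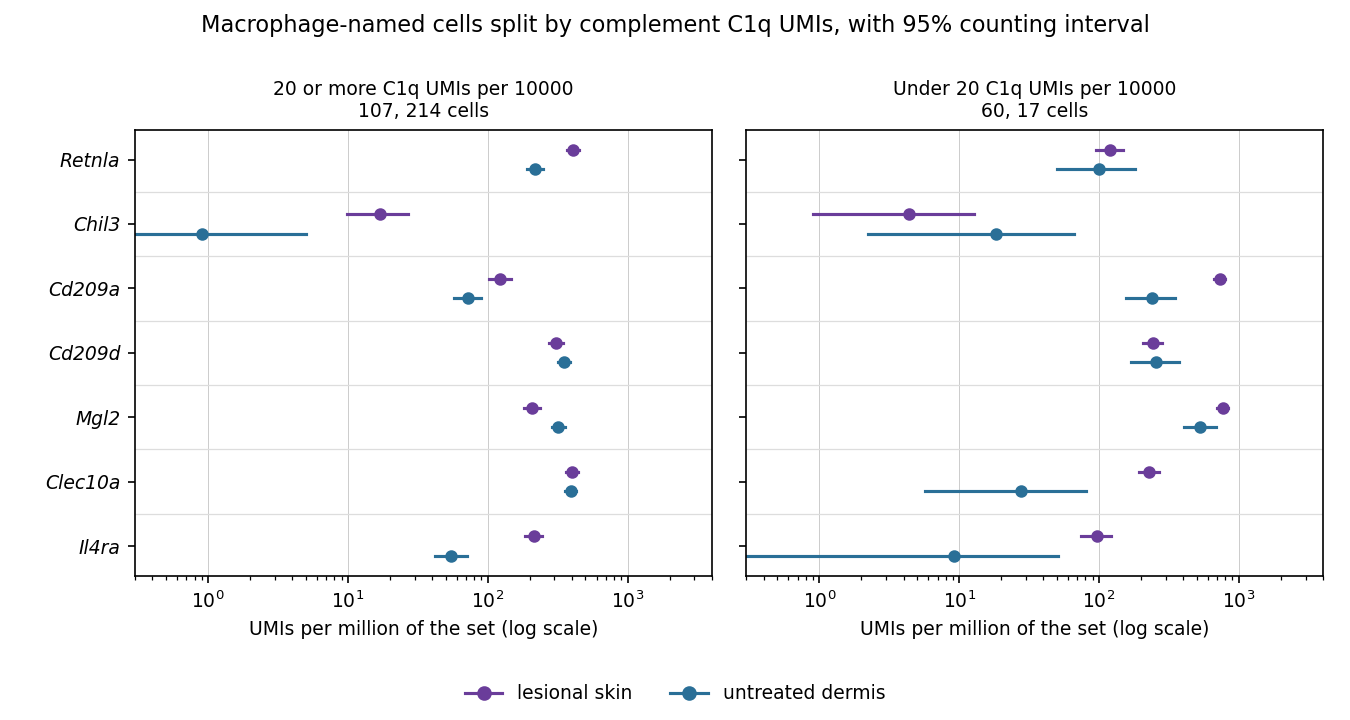
Level of each gene (CPM) in macrophages at or above and below 20 C1q UMIs per 10000, for lesional skin and untreated dermis, with exact Poisson 95% intervals. In lesional skin Cd209a is at 728 CPM below the cutoff and 123 CPM at or above it, and Il4ra at 96.3 and 213 CPM.

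Il4ra and Retnla were unequal between the female and male macrophages of lesional skin. Il4ra had 44.1 CPM in the 36 cells with Xist alone (14 UMIs, 27.8% of cells) and 187 CPM in the 77 cells with Y-linked genes alone (182 UMIs, 75.3% of cells), at medians of 8542.5 and 11949 UMIs per cell. Retnla had 1177 CPM in the cells with Xist alone, as 374 UMIs in 5 cells, and 111 CPM in those with Y-linked genes alone, as 108 UMIs in 6 cells. Mgl2 had 903 CPM in the cells with Xist alone and 306 CPM in those with Y-linked genes alone, while Cd209d had 286 CPM and 306 CPM in the same 2 sets. The Il4ra of the cells with Xist alone had an interval of 24.1 to 73.9 CPM, which spans the 50.9 CPM of macrophages of untreated dermis. The cells come from 1 library, so sex, animal and lesion cannot be told apart.

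Single macrophages of lesional skin and untreated dermis held none, or all 4, of the lectins more often than independent detection would give. The same was seen in imiquimod dermis as counted. At 2000 UMIs per cell, 77.6% of macrophages of imiquimod dermis held none of the 4 lectins, against 49.3% in lesional skin and 31.5% in untreated dermis. Independent detection would give 76.2% in imiquimod dermis, 30.3% in lesional skin and 23.9% in untreated dermis, so the gap was widest in lesional skin. For imiquimod dermis the value by independence lies inside the counting interval, 74.1% to 80.8%. As counted it lies outside: 50.7% of those macrophages held none (46.8% to 54.5%), where independence would give 42.4%. As counted 0.736% of them held all 4, where it would give 0.0255%. At 2000 UMIs per cell all 4 were found in 1 of 633 macrophages of imiquimod dermis, 6 of 150 of lesional skin and 4 of 178 of untreated dermis (2.25%), where independence would give shares of 0.000461%, 0.399% and 0.439%. Macrophages with 3 made up 12.7% in lesional skin, where independence would give 4.90%, and 7.30% in untreated dermis, where it would give 6.26%, but as counted 8.98% in lesional skin, where it would give 9.11%. Macrophages with 2 were below independence in lesional skin, at 14.7% against 21.9%, and level with it in untreated dermis, at 26.4% in both. Cd209a and Cd209d met in 21 lesional macrophages against 6.66 by independence (3.15 times) and in 11 of untreated dermis against 5.02 (2.19 times). Pairs met at least 1.5 times as often as by independence in 1 of the 6 pairs with enough cells in imiquimod dermis, 6 of 10 in lesional skin and 1 of 6 in untreated dermis. In imiquimod dermis Chil3 and Mgl2 met less often, in 2 macrophages against 8.07. With the expected counts summed within clusters, the pairs were 1 of 5 in imiquimod dermis, 7 of 10 in lesional skin and 1 of 6 in untreated dermis. Most lesional macrophages are in 1 cluster, so its 2 kinds by C1q are not separated there. The part of the 3′ sequence that lectin genes share was not tested.

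**Figure D5:**
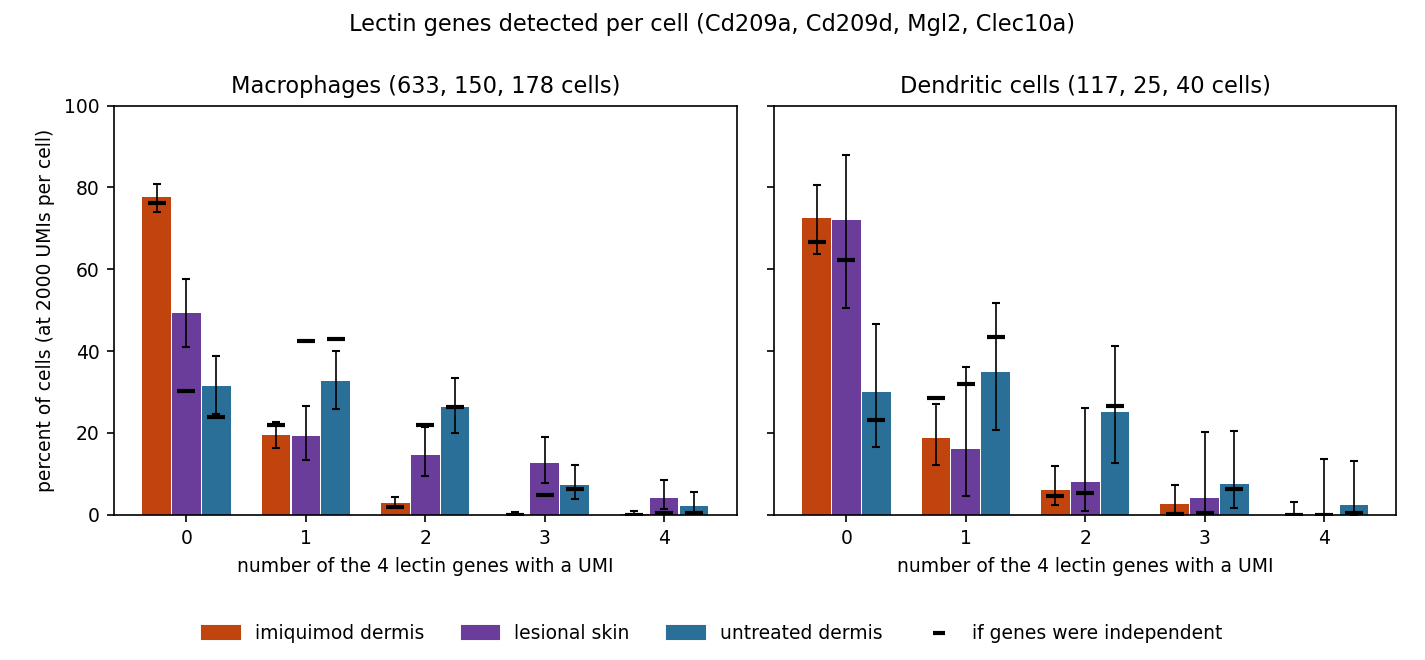
Share of macrophages (left) and dendritic cells (right), in percent at 2000 UMIs per cell, with 0 to 4 of the lectins Cd209a, Cd209d, Mgl2 and Clec10a in imiquimod dermis, lesional skin and untreated dermis, with exact binomial 95% intervals as error bars and a dash for the share that independent detection would give. Of macrophages of imiquimod dermis 77.6% hold none, against 49.3% in lesional skin and 31.5% in untreated dermis.

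Shared sequence limits some of the values. Mgl2 and Clec10a have a longest identical run of 106 bases in the last 600 bases of their transcripts, Chil3 and Chil4 of 136 and Retnla and Retnlg of 49, whereas Cd209a and Cd209d share 20. Reads from such runs can be lost or placed with either gene, so the split between Mgl2 and Clec10a is uncertain. Relatives of Cd209a were likewise lowest in macrophages of imiquimod dermis: Cd209b had 15.6 CPM in imiquimod dermis, 29.6 in lesional skin and 62.3 in untreated dermis, Cd209f 38.7 CPM in imiquimod dermis, 92.8 in lesional skin and 147 in untreated dermis, and Cd209g 13.1 CPM in imiquimod dermis, 26.0 in lesional skin and 91.9 in untreated dermis. Retn, which encodes resistin, had 1.85 CPM in imiquimod dermis, 0 in lesional skin and 27.9 in untreated dermis. Retnlg, a neutrophil gene, had 164 CPM in macrophages of imiquimod dermis and 12144 CPM in its neutrophils. Cd209e had 21.9 CPM in macrophages of lesional skin and 4.10 CPM in those of untreated dermis. Chil1 had 1717 CPM in cells named fibroblasts of imiquimod dermis, 12.5 CPM in lesional skin and 224 CPM in untreated dermis. It was a leading gene of 1 cluster of that name, beside Cytl1, Col8a1 and Chad. That cluster had 31 cells in imiquimod dermis, 2 in lesional skin and 10 in untreated dermis, and its part in the Chil1 values was not tested.

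Other genes of the interleukin-4 and interleukin-13 pathway were read from a list of 36, of which 35 are in the files and Clec7a was not analysed here. In macrophages of imiquimod against untreated dermis 24 had enough counts, 11 being more than 2-fold lower and 1 higher, beside 21.4% lower and 8.41% higher of all genes. Arg1, the arginase of alternatively activated macrophages, had 137 UMIs in imiquimod dermis (18.1 CPM) and 0 in untreated dermis, at least 7.35-fold higher against a floor of 3 UMIs over the group. These values leave out a cluster of 296 cells of imiquimod dermis that was led by Arg1. It carried markers of macrophages and of monocytes and is outside the class. The eosinophil-attracting chemokine Ccl24 had 27.5 CPM in imiquimod dermis and 275 CPM in untreated dermis, and Klf4, a transcription factor induced by STAT6, had 115 CPM in imiquimod dermis and 457 CPM in untreated dermis. The scavenger receptor Cd163 had 91.9 CPM in imiquimod dermis and 289 CPM in untreated dermis, and the folate receptor Folr2 129 CPM in imiquimod dermis and 309 CPM in untreated dermis. Within 2-fold were the mannose receptor Mrc1 (389 CPM in imiquimod dermis, 693 CPM in untreated dermis), Stat6 (29.96 CPM in imiquimod dermis, 41.8 CPM in untreated dermis) and Il13ra1, the other receptor chain (21.9 CPM in imiquimod dermis, 38.6 CPM in untreated dermis). Cd163, Folr2 and Mrc1 are also among the markers that named the class. Arg1 thus went with Chil3, and Ccl24 and Klf4 with Retnla and the lectins.

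In macrophages of lesional skin against untreated dermis 25 of the list had enough counts, 5 being more than 2-fold higher and 4 lower, beside 15.6% higher and 7.14% lower of all genes. Socs3, an inhibitor of cytokine signalling, had 428 CPM in lesional skin and 92.7 CPM in untreated dermis, and the ribonuclease Ear2 68.6 CPM in lesional skin and 21.3 CPM in untreated dermis. The chemokine Ccl17 had 4.14 CPM in lesional skin and 54.1 CPM in untreated dermis, and Ccl24 had 75.7 CPM in lesional skin and 275 CPM in untreated dermis. Within 2-fold were Mrc1 (919.5 CPM in lesional skin, 693 CPM in untreated dermis), Stat6 (52.0 CPM in lesional skin, 41.8 CPM in untreated dermis) and Il13ra1 (65.0 CPM in lesional skin, 38.6 CPM in untreated dermis). Arg1 was among the leading genes of the lesional cluster led by Gpnmb, Mmp12 and Spp1, which is outside the class.

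In dendritic cells 21 of the list had enough counts in imiquimod against untreated dermis, 8 being more than 2-fold lower and 4 higher, beside 22.9% lower and 35.9% either way of all genes. Cd163 had 7.39 CPM in imiquimod dermis and 52.5 CPM in untreated dermis, and Mrc1 23.9 CPM in imiquimod dermis and 68.0 CPM in untreated dermis. Klf4 had 67.6 CPM in imiquimod dermis and 185 CPM in untreated dermis, and Stat6 32.4 CPM in imiquimod dermis and 75.8 CPM in untreated dermis. In lesional skin against untreated dermis 22 had enough counts, 9 being more than 2-fold higher and 4 lower, beside 16.7% higher and 15.9% lower of all genes. There Cish, another inhibitor of cytokine signalling, had 57.2 CPM in lesional skin and 1.94 CPM in untreated dermis, and the transglutaminase Tgm2 60.0 CPM in lesional skin and 5.83 CPM in untreated dermis. The chemokine Ccl8 had 0 CPM in lesional skin and 124 CPM in untreated dermis, and Cd163 had 5.72 CPM in lesional skin and 52.5 CPM in untreated dermis. Cd163, a macrophage marker, is among the lower genes of both comparisons.

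In imiquimod dermis and lesional skin the RNA of the cytokines lay mostly outside macrophages. In imiquimod dermis 481 of 591 Il4 UMIs lay outside the named classes and the phagocyte clusters, 479 of them in a cluster of 259 cells led by Mcpt8, Prss34 and Cyp11a1 with 430.3 CPM of Il4 and 163 CPM of Il13. Mast cells held 370.2 CPM of Il4 in imiquimod dermis and 189 CPM in lesional skin. Lesional skin as a whole held 43 Il4 and 15 Il13 UMIs, and untreated dermis 10 Il4 UMIs, 5 of them in macrophages, and 44 Il13 UMIs. T cells and innate lymphoid cells held 48.0 CPM of Il13 in imiquimod dermis, 3.59 CPM in lesional skin and 85.1 CPM in untreated dermis. Over all cells Il4 had 15.4 CPM in imiquimod dermis, 1.37 CPM in lesional skin and 3.39 CPM in untreated dermis. Il13 had 9.52 CPM over all cells in imiquimod dermis, 0.479 CPM in lesional skin and 14.9 CPM in untreated dermis, an order unlike that of Il4.

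Likeness between genes was taken as Pearson's r of log2(CPM + 5) over 26 sums, each of 1 class in 1 library, which share libraries and depth, and it is given with no test. Cd209d and Mgl2 reached 0.962, Cd209a and Mgl2 0.919 and Cd209a and Cd209d 0.884. The third most like gene was Flt3 for Cd209a (0.825), Cd163 for Cd209d (0.837) and Cd83 for Mgl2 (0.827). Clec10a was most like Lat2 (0.862), Blnk (0.817) and Zfp992 (0.803). Retnla was most like Fcna (0.884), Cd209f (0.826) and Cd163 (0.824), Chil3 most like Klra2 (0.945), F10 (0.895) and Sirpb1c (0.894), and Il4ra most like Vsir (0.815), Arhgef3 (0.739) and Klf2 (0.708).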

How the data were processed

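UMI counts per gene and cell barcode were deposited by the authors for 5 libraries, and per the labels' protocols skin was digested, dead cells were sorted out and cells were captured as droplets. CASAVA, Cell Ranger and build mm10 are named in the submitters' processing notes, and 3.0.2 is the software version in the file headers. Libraries held 3020790 to 41258087 UMIs. Cells with 200 or more genes and under 20% mitochondrial UMIs were kept, the highest Scrublet scores (0.8% per 1000 cells) were removed as doublets, and cells were clustered with the 7 genes left out (scanpy 1.11.5, leidenalg 0.10.2; 2000 variable genes, 30 components, 15 neighbours, resolution 1.0), phagocytes a further time. Clusters were named from marker lists. UMIs were summed by class and library as CPM of those cells. A gene entered a comparison with a sum of 10 UMIs or more from the pair of libraries and 10 CPM in one of them, a class with 20 cells or more, and a difference was named at 2-fold, with 0 UMIs entered as 3. Intervals are 95% exact Poisson, exact conditional binomial for ratios and Clopper-Pearson for shares, computed with scipy 1.17.1.

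The members and lists were chosen with earlier results of these data known. The text names all 7 genes, the 3 genes most like each (at least 50 CPM in 1 sum), of the pathway list the 4 with the largest ratio and at least 50 CPM in the higher library, with Arg1, Mrc1, Stat6, Il4, Il13 and Il13ra1 always, and relatives with at least 10 CPM in a class. Leading genes of clusters, the C1q cutoff with the genes given beside it, and the split by Xist and Y-linked genes were chosen after values were seen. Other alternatives covered filters, doublets, clustering, scaling, thinning and thresholds. The epidermis libraries entered the clustering and no comparison.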

Additional observations from a re-analysis of the deposited data

Results flagged for a closer look

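A pair of genes had high levels in cells that no comparison above uses. Clec10a, with few UMIs in lymphoid cells, had 689 CPM in mast cells of imiquimod dermis (108 UMIs in 122 cells) and 630.1 CPM in those of lesional skin (127 UMIs in 126 cells), above its level in macrophages of either library. Chil3 had 746 CPM in neutrophils of imiquimod dermis and 318 CPM in those of lesional skin. Mast cells were shallow, with medians of 849 UMIs in imiquimod dermis and 1204 in lesional skin. Untreated dermis had 5 mast cells and fewer than 20 neutrophils, so neither value has a control. What these values owe to free RNA or to doublets was not tested.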

How the results depend on the processing

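In macrophages of imiquimod against untreated dermis the 7 genes kept their signs in every alternative run, with log2 ratios of -10.18 to -6.35 for Retnla and 5.51 to 7.71 for Chil3. Summaries moved as follows, and the cause was not tested except where fewer cells, UMIs or genes enter by construction. For pathway genes in macrophages of imiquimod dermis, the 1 higher became 2 with the 7 genes in the clustering, without the 50 highest genes, by median of ratios, at 2000 UMIs and at 1.5-fold, and 3 at resolution 2.0, by mean over cells and with no filter, and the 11 lower became 6 at 3-fold. In dendritic cells of imiquimod dermis, the 1 member higher became 3 with stricter cell filters, the 8 pathway genes lower 5 by median of ratios or at 2000 UMIs and 3 at 3-fold, and the 4 higher 0 at 2000 UMIs and 2 at 3-fold. In lesional macrophages the 4 pathway genes lower became 2 with stricter filters, 1 at 2000 UMIs, 7 with no filter and 2 at 3-fold, and the 5 higher became 2 at 2000 UMIs and 9 at 1.5-fold. In lesional dendritic cells the 2 members lower became 1 without doublet removal or against cells with Y-linked genes, and at 2000 UMIs the 4 pathway genes lower became 0 and the 9 higher 2. Il4ra in lesional macrophages had a log2 ratio of 1.70, which turned to -0.21 in cells with Xist alone. Alternatives added after seeing the data kept macrophages with 20 or more C1q UMIs per 10000. Of these, cells with Y-linked genes gave 1 member lower in place of 0 (Retnla, -2.09) and 9 pathway genes higher in place of 5.

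Co-detected pairs depended on depth. For macrophages of imiquimod dermis 1 pair became 0 at 2 times, at 1000 UMIs, with the 7 genes in the clustering or without doublet removal, 2 at 3000 UMIs and 4 as counted. Lesional macrophages had 6 pairs, 3 at 2 times and 0 at 1000 UMIs, and macrophages of untreated dermis 1 pair, 3 at 3000 UMIs or as counted and 2 with the 7 genes in the clustering. Dendritic cells of untreated dermis had 1 pair and 0 at 2 times, at 1000 or 3000 UMIs, as counted and without doublet removal, and those of imiquimod dermis 0 pairs and 5 as counted. Shares past 2-fold moved in macrophages of imiquimod dermis (1 higher, 2 as counted), their dendritic cells (1 higher, 2 at 1000 or 3000 UMIs), lesional macrophages (0 lower, 2 at 1000 UMIs; 3 higher, 1 at 3000 UMIs) and lesional dendritic cells (0 higher, 1 at 3000 UMIs).

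Of the summaries 226 values stayed and 50 moved, and of single genes 192 stayed, 71 moved and 1 reversed. Cell names limit the lesional values: without doublet removal 9 lesional macrophages remained, and with the 7 genes in the clustering 14, so neither was run. Dendritic cells at resolution 2.0 or with the 7 genes in the clustering, and lesional ones with stricter filters, had under 20 cells in a library. Over settings the median log2 ratio of all genes lay between -0.33 and 0.26; scaling by median of ratios set it near 0 and turned the sign of no member in macrophages. No paired analysis was possible because each condition has 1 library.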
